A study of Mus musculus with 18 samples.

Results

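The genes described here are those named for 6 families of solute carriers that move amino acids across membranes, Slc1a, Slc3a, Slc7a, Slc36a, Slc38a and Slc43a, each followed by a member number. The deposited count tables held 42 such gene names out of 54429. They comprised 7 Slc1a, 2 Slc3a, 15 Slc7a, 4 Slc36a, 11 Slc38a and 3 Slc43a genes. Of these, 35 had enough counts to be tested and 7 did not. The 7 were Slc3a1, Slc7a10, Slc7a12, Slc7a13, Slc7a14, Slc7a15 and Slc38a11. Membership was set by name alone, and by the name rule it includes Slc43a3, known as a carrier of purine nucleobases rather than of amino acids.

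Cells take up amino acids through carriers that differ in what they move and in what drives them. The Slc7a light chains exchange one amino acid for another, and several of them, Slc7a5 among them, reach the surface only when joined to the heavy chain Slc3a2 (CD98), while Slc7a9 pairs with Slc3a1. Slc1a carriers take up glutamate and aspartate or small neutral amino acids, Slc38a carriers bring in glutamine, alanine and other neutral amino acids with sodium, and several Slc36a and Slc38a members work at the lysosome, where amino acids are sensed by the mTORC1 kinase. Many carrier genes are textbook targets of ATF4, the transcription factor that amino acid shortage and other stresses induce through the integrated stress response.

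The libraries hold RNA of mouse embryonic stem cells (mESCs) or of embryoid bodies, floating clumps of differentiating mESCs. Knock-in cells carried FLAG-tagged EED, a core subunit of Polycomb repressive complex 2, either with lysine 19 replaced by arginine (K19R) or of wildtype sequence (FLAG-WT). Both lines were taken at day 0 as mESCs in medium with leukemia inhibitory factor (LIF) and the MEK and GSK3 inhibitors called 2i, and at days 2, 6 and 10 as embryoid bodies in a differentiation medium that lacked LIF and 2i. A further group held wildtype mESCs in LIF without 2i. The sources used here do not say how they relate to the knock-in lines. These make 9 groups of 2 libraries. The mESC medium contained serum, GlutaMAX and nonessential amino acids, per the labels' protocols. The amino acid content of the differentiation medium and the number of clones behind each line do not appear in the sources used here either, so day and medium cannot be told apart, nor can the substitution and the clone.

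Levels are CPM, counts scaled by library size, with library sizes adjusted by edgeR's TMM (trimmed mean of M-values) factors. Differences are log2 changes ± SE from an edgeR quasi-likelihood fit over all tested genes of the 16 knock-in libraries, or of all 18 libraries for the wildtype mESCs, and a gene was called where its Benjamini-Hochberg adjusted p was under 0.05. Values are given for both libraries of a group, replicate 1 first. Statements that groups did or did not overlap describe those libraries only. Overlap was not counted over all genes, and many of the genes were named because their changes were large. Whether the 2 libraries of a group are separate cultures is not stated in the labels, and p-values cover only the spread between these libraries, which may be technical. The FLAG-EED libraries held 20158077 to 28917558 counts and the wildtype mESC libraries 14190166 and 37375083. The 9 pluripotency markers of the checked list summed to 6696 and 6345 CPM in K19R mESCs and 6421 and 6397 CPM in FLAG-WT mESCs, and none was at 0. In these bulk samples, fewer cells of a type and less RNA per cell cannot be told apart.

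The summed level of the 42 genes peaked at day 2 in both lines. In K19R libraries it was 1752 and 1742 CPM on day 0, 3096 and 3011 on day 2, 1823 and 1871 on day 6 and 2298 and 2315 on day 10. In FLAG-WT libraries it was 1568 and 1570.3 CPM on day 0, 4509.6 and 4529 on day 2, 2506 and 2445 on day 6 and 2291 and 2300.3 on day 10. The lines lay apart most at day 2, where both K19R libraries were far below both FLAG-WT libraries, and close together at day 10. The gaps at days 6 and 10 depend on the TMM scaling. With library totals only, the median log2 change of all genes between the lines moved from 0.02 to 0.38 at day 6. It moved from 0.13 to 0.44 at day 10, but only from 0 to -0.02 at day 2.

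At day 2, Slc7a9, Slc1a4, Slc7a5 and Slc7a1 were the called genes furthest below FLAG-WT in K19R embryoid bodies, and Slc1a6 and Slc38a3 those furthest above. Of the 35 genes tested, 17 were lower, 7 higher and 11 did not pass. Over all 19092 genes tested, 41.8% were called, 21.8% as lower and 20% as higher. The median log2 change was -0.68 over the 35 genes and 0 over all genes. With at least 2-fold change, 14 of the 35 were called, against 2215 of all 19092 genes.

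Slc7a5, the light chain of the large neutral amino acid exchanger LAT1 (chr8:121881150-121907694, minus strand on GRCm38), had 229.9 and 221 CPM at day 2 in K19R, against 787 and 796 CPM in FLAG-WT. Both K19R libraries lay below both FLAG-WT libraries (log2 change -1.81 ± 0.06 SE, adjusted p = 8.2e-18). Its partner Slc3a2 (chr19:8706882-8723369, minus strand), the heavy chain, had 233 and 246 CPM in K19R and 532 and 551 CPM in FLAG-WT, again with no overlap (-1.18 ± 0.06 SE, adjusted p = 6.3e-14). Slc7a6, another light chain of the same heavy chain that exchanges cationic for neutral amino acids, had 73.6 and 68.2 CPM in K19R, against 179 and 171 CPM in FLAG-WT (-1.30 ± 0.06 SE, adjusted p = 9.4e-15). Slc7a7, a light chain of the same kind, was lower by less, with 239 and 254 CPM in K19R and 409.6 and 408 CPM in FLAG-WT (-0.73 ± 0.08 SE, adjusted p = 2e-08).

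Slc7a9 and Slc1a4 differed most at day 2. Slc7a9 (chr7:35448796-35466036, plus strand), the light chain of the exchanger that reabsorbs cystine and cationic amino acids in kidney and gut, had 0.899 and 1.05 CPM in K19R and 8.92 and 8.83 CPM in FLAG-WT (-3.18 ± 0.20 SE, adjusted p = 7.6e-13). Its known heavy chain partner Slc3a1 was too low to test in these cells, with 0.0321 and 0.0679 CPM in K19R and 0.0862 and 0.103 CPM in FLAG-WT. Slc1a4 (chr11:20302180-20332713, minus strand), a carrier of alanine, serine and cysteine, had 15.5 and 14.1 CPM in K19R, against 97.3 and 94.5 CPM in FLAG-WT (-2.69 ± 0.09 SE, adjusted p = 3.3e-18). Every K19R library lay well under the FLAG-WT libraries for both genes. Slc1a5, the related carrier that also takes up glutamine, had 39.1 and 33.5 CPM in K19R and 80.8 and 82.1 CPM in FLAG-WT (-1.16 ± 0.11 SE, adjusted p = 1.5e-09), with no overlap.

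Cationic amino acid transporters differed among themselves. Slc7a1 (chr5:148327410-148399904, minus strand), the widely expressed arginine and lysine carrier, had 98.3 and 83.5 CPM in K19R embryoid bodies at day 2 and 302 and 297 CPM in FLAG-WT (-1.72 ± 0.08 SE, adjusted p = 7.5e-16). Its relative Slc7a3 on the X chromosome had 206 and 216 CPM in K19R and 227 and 227 CPM in FLAG-WT. For Slc7a3 the K19R libraries lay just under the FLAG-WT libraries, and the difference did not pass (-0.10 ± 0.08 SE, adjusted p = 0.33).

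The sodium-coupled Slc38a carriers also went different ways at day 2. Slc38a2, which amino acid shortage induces, was the most abundant of the 42 genes in CPM and was higher in K19R, with 1114 and 1062 CPM, against 869 and 872 CPM in FLAG-WT (0.32 ± 0.07 SE, adjusted p = 0.00059). Slc38a1, its close relative, had 129 and 118 CPM in K19R and 236 and 246 CPM in FLAG-WT (-0.97 ± 0.07 SE, adjusted p = 1e-11). The groups did not overlap for either gene, and the direction was opposite. Slc38a2 made up 35.6% of the summed CPM of the 42 genes in K19R and 19.3% in FLAG-WT, while Slc7a5 made up 7.38% in K19R and 17.5% in FLAG-WT.

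Slc38a3 and Slc38a5, both carriers of glutamine and histidine, moved apart at low levels. Slc38a3 had 3.79 and 3.6 CPM in K19R and 1.21 and 0.862 CPM in FLAG-WT at day 2 (1.85 ± 0.22 SE, adjusted p = 1.8e-07), so it was higher in both K19R libraries. Slc38a5 had 0.417 and 0.781 CPM in K19R and 1.94 and 1.83 CPM in FLAG-WT (-1.65 ± 0.37 SE, adjusted p = 0.00069), so it was lower. The glutamate carrier Slc1a6 had 1.73 and 0.984 CPM in K19R and 0.302 and 0.31 CPM in FLAG-WT (2.14 ± 0.54 SE, adjusted p = 0.0024). Slc1a6 was higher in both K19R libraries, but its call was lost without K19R replicate 1 (log2 change 1.67).

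Among the other called genes at day 2, Slc38a6, Slc38a7, Slc38a9, Slc36a1, Slc36a4, Slc1a1 and Slc43a2 were lower, with log2 changes between -1.20 and -0.62. Among them are genes with known lysosomal roles, Slc36a1 as a proton-coupled exporter, Slc38a7 as an exporter of glutamine and asparagine and Slc38a9 as the arginine sensor of mTORC1. Slc1a3, Slc43a1, Slc43a3 and Slc38a10 were higher, with log2 changes between 0.29 and 1.02. Exons of Slc1a1 overlap those of the antisense gene 4430402I18Rik over 42.6% of their length, and the counting recorded no strand option, so reads of the pair could not be told apart. The cystine carrier Slc7a11 had 3.31 and 2.88 CPM in K19R and 4.66 and 3.86 CPM in FLAG-WT and did not pass (-0.45 ± 0.29 SE, adjusted p = 0.22).

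**Figure D1:**
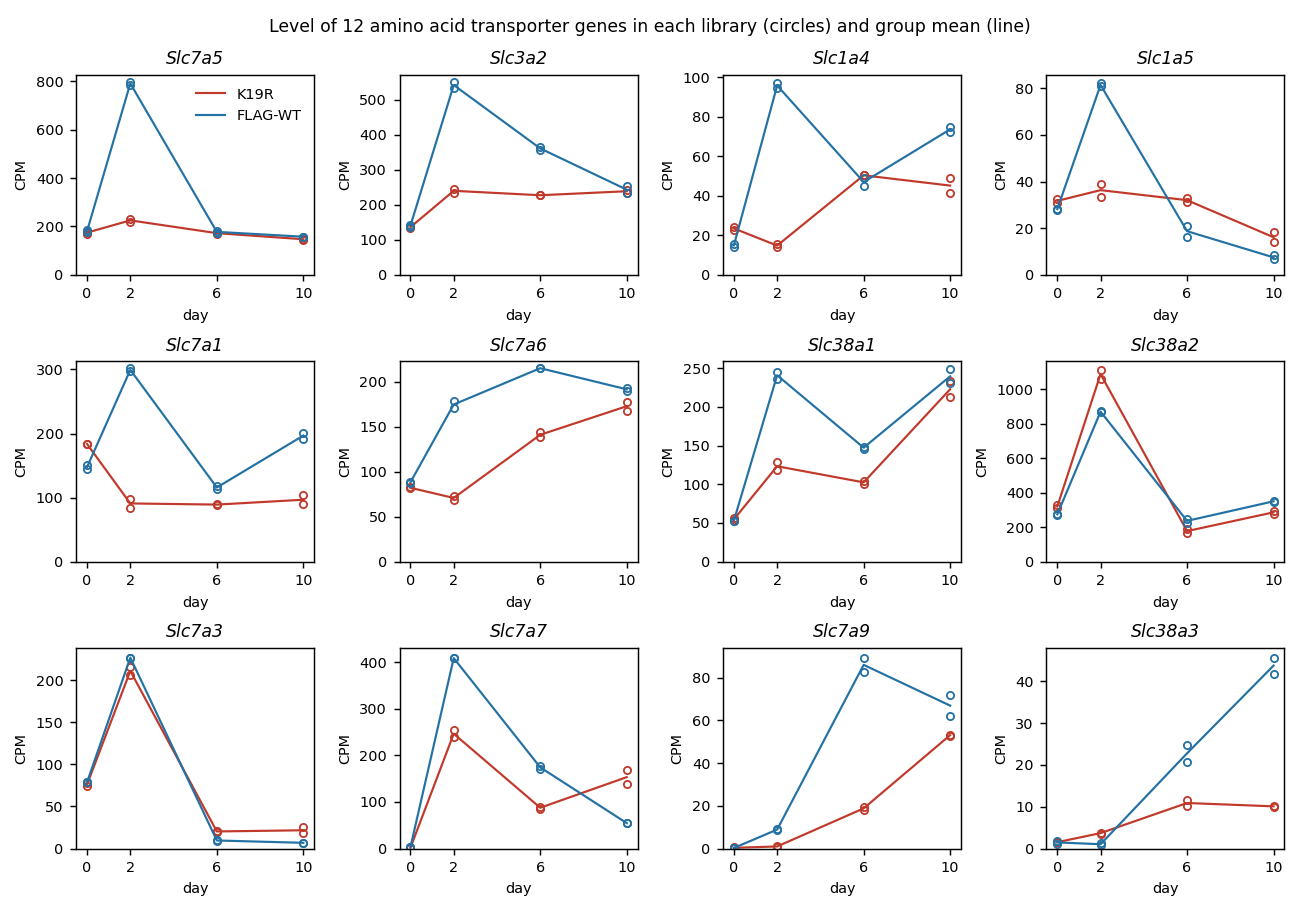
Level in CPM (vertical axes, from 0) against day (horizontal axes) for 12 amino acid transporter genes, with a circle for each library and a line through the mean of 2 libraries, K19R in red and FLAG-WT in blue. At day 2 the K19R circles of Slc7a5 lie at 229.9 and 221 CPM, under the FLAG-WT circles at 787 and 796, whereas those of Slc38a2 lie above.

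Genes of related pathways were read from 6 lists of textbook members. At day 2 more members were called lower than higher in K19R in 5 of these lists, all but the glutathione list. The called share was 9 of 21 for transporters outside the 6 families and 14 of 28 for mTORC1 sensing, against 41.8% of all genes. It was 14 of 18 for the stress response, 18 of 20 for amino acid synthesis and 16 of 20 for the tRNA synthetases. Of 18 integrated stress response genes tested, 13 were lower and 1 higher, with a median log2 change of -1.81, against a median of 0 over all genes. Chac1, which breaks down glutathione and is induced by ATF4, had 2.57 and 2.82 CPM in K19R and 70 and 74.8 CPM in FLAG-WT (-4.75 ± 0.18 SE, adjusted p = 4.2e-17). The stress gene Nupr1 had 1.32 and 1.32 CPM in K19R and 30.7 and 30.8 CPM in FLAG-WT (-4.54 ± 0.20 SE, adjusted p = 9e-16). Both genes were many times lower in both K19R libraries, with no overlap. Vldlr, a lipoprotein receptor, and Atf3, a stress-induced transcription factor, had log2 changes of -4.20 and -3.12.

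Of 20 amino acid synthesis genes, 13 were lower and 5 higher (median log2 change -0.70). Aldh18a1, which starts proline synthesis from glutamate, had 30 and 28.8 CPM in K19R and 211 and 201 CPM in FLAG-WT (-2.81 ± 0.08 SE, adjusted p = 4.5e-20). Glutamine synthetase Glul, serine phosphatase Psph and asparagine synthetase Asns changed by -1.87, -1.48 and -1.46 on the log2 scale, all lower in K19R. Of 20 cytosolic aminoacyl-tRNA synthetases, which charge tRNAs with amino acids, 13 were lower and 3 higher (median -0.42), led by Nars (-1.56), Sars (-1.49) and Cars (-1.37). Of 21 amino acid transporters outside the 6 families, 8 were lower and 1 higher (median -0.14), and the glycine transporter Slc6a9 was the lowest of the called genes (-2.22 ± 0.15 SE, adjusted p = 2.8e-12).

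The other lists were more even at day 2. Of 28 genes of amino acid sensing by mTORC1, 9 were lower and 5 higher (median 0.03). Of 15 genes of glutathione synthesis and export, 3 were lower and 5 higher (median -0.06). Chac1 stands in both the stress response and the glutathione list, and Sesn2 in both the stress response and the mTORC1 list.

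**Figure D2:**
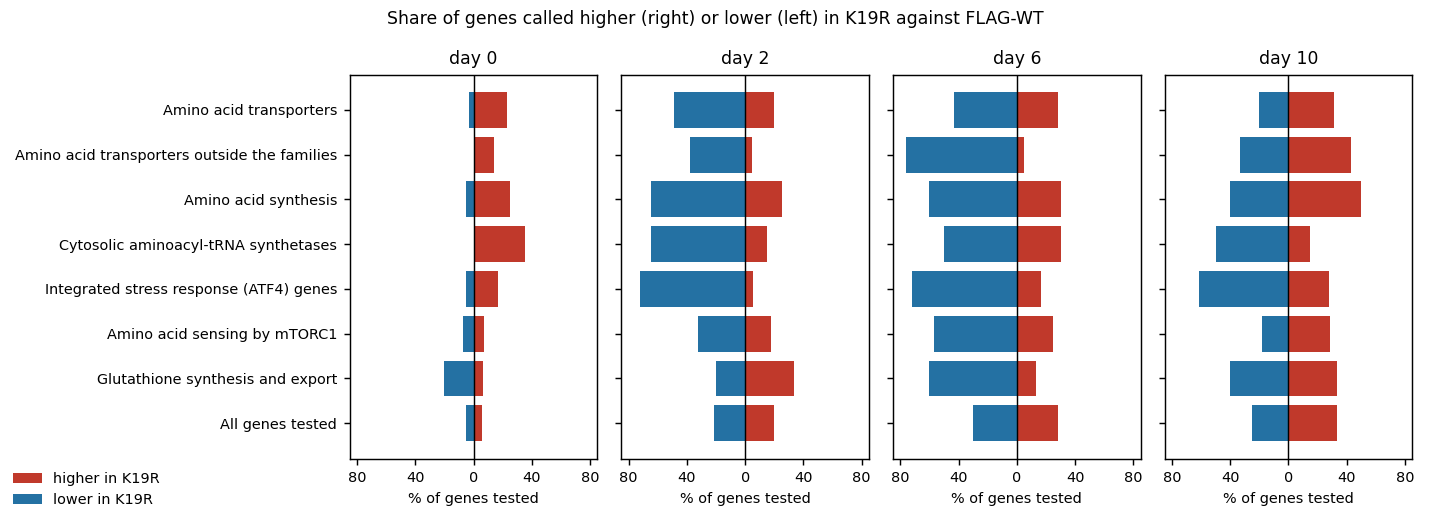
Share of the tested genes of each list (rows), in percent, that were called higher (red, to the right of 0) or lower (blue, to the left) in K19R against FLAG-WT at days 0, 2, 6 and 10, with all 19092 tested genes in the bottom row. At day 2 the blue bars of the transporters (17 of 35) and of the stress response genes (13 of 18) reach past that of all genes (21.8%).

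Markers of visceral endoderm, the tissue that forms on the outside of embryoid bodies, were also mostly lower in K19R at day 2. Their summed level at day 2 was 532 and 476 CPM in K19R and 4080.2 and 4141 CPM in FLAG-WT, and 12 of the 14 markers were lower and 1 higher. The 9 pluripotency markers summed to 3122 and 3363 CPM in K19R and 3256 and 3261 CPM in FLAG-WT, with 5 lower and 2 higher. The 6 fibroblast and mesenchyme markers summed to 35.9 and 34.2 CPM in K19R, against 234 and 237 CPM in FLAG-WT, with 2 lower and 3 higher (median 0.48, opposite in direction to the sum). None of the 14 visceral endoderm markers had 0 counts in both libraries of a group. The part of these cell types in the transporter differences was not tested.

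Promoters of 31 of the 42 genes could be read from RefSeq windows on GRCm38.p6, 42 windows in all, each with 250 bases before and 50 after a transcription start. The C/EBP-ATF response element, to which ATF4 binds with C/EBP partners, was searched on both strands as TGATGNAA. It stood in 4 of the 42 windows (9.52%), against 3.97% of 32851 windows of the same length over all genes, and the 4 windows belonged to Slc7a11, Slc1a4 and Slc7a7. The windows are shown because these 3 genes were the members that held the element, with capitals marking the matches. Positions are counted from the start, with -1 the base before it and 1 the first base transcribed. All are written 5′ to 3′ on the minus strand, from chr3:50443564-50443863 for Slc7a11, chr11:20332664-20332963 for Slc1a4 and chr14:54417895-54418194 for Slc7a7.
Slc7a11: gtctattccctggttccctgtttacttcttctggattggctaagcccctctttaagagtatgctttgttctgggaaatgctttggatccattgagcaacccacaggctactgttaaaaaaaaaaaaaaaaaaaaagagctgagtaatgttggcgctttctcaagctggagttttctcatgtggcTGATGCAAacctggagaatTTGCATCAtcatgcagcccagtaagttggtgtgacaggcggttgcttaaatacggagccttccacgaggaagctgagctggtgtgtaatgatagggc
Slc1a4: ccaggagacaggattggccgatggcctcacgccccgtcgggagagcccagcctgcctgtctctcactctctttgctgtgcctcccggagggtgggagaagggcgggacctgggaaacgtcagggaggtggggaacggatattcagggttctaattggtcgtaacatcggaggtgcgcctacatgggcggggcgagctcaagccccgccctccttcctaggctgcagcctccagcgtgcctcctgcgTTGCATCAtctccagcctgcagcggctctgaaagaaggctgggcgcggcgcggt
Slc7a7: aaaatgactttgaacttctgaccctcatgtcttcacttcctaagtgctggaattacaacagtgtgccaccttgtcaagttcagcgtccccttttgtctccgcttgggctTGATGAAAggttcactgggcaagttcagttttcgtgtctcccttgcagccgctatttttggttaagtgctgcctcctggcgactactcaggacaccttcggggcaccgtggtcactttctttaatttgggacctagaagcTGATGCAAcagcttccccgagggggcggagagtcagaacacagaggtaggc
Slc7a11 held 2 matches, from -66 to -59 on the gene's strand and from -47 to -40 on the opposite strand. Slc1a4 held 1 match, from -4 to 4 on the opposite strand. Slc7a7 held 2, from -141 to -134 and from -1 to 7, and its other window, chr14:54417653-54417952, held the second of these again because the windows overlap. A match is a description of letters in the window. At day 2, as given above, Slc1a4 and Slc7a7 were lower in K19R, and Slc7a11, with levels under 5 CPM in every day 2 library, did not pass.

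From day 0 to day 2 the transporter genes rose more often in FLAG-WT than in K19R by count. In FLAG-WT, 21 of the 35 genes were higher at day 2 than at day 0 and 5 lower (all genes, 56.1% called, 28.5% higher and 27.6% lower; median log2 change 0.98, against 0 over all genes). In K19R, 16 were higher and 11 lower (56.4% of all genes called, 28.5% higher and 27.9% lower; median 0.37, against 0.03). Of the 21 that rose in FLAG-WT, 14 also rose in K19R, 3 did not pass and 4 fell, classes that were not counted over all genes. The 4 were Slc1a4, Slc7a1, Slc7a6 and Slc38a5.

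The change from day 0 to day 2 differed between the lines, in a test of that difference itself, for 18 of the 35 genes, 16 towards lower levels in K19R and 2 towards higher ones (27.1% of all genes called, 14.4% lower and 12.7% higher). Slc1a4 had 15.5 and 14.1 CPM at day 2 and 22.8 and 24.2 CPM at day 0 in K19R (log2 change -0.66 ± 0.10 SE, adjusted p = 1.3e-06). In FLAG-WT it had 97.3 and 94.5 CPM at day 2 and 14.3 and 15.5 CPM at day 0 (2.69 ± 0.09 SE, adjusted p = 8.4e-19). The change was downward in K19R and upward in FLAG-WT, and the lines differed by -3.35 ± 0.13 (adjusted p = 4.5e-16). Slc7a9 had the largest such difference (-3.59 ± 0.63 SE, adjusted p = 9.9e-05), a call that was lost without K19R day 0 replicate 1 (-2.29). Slc7a1 likewise fell in K19R, with 98.3 and 83.5 CPM at day 2 and 184 and 184 CPM at day 0, and rose in FLAG-WT, with 302 and 297 CPM at day 2 and 145 and 150.2 CPM at day 0 (difference -2.03 ± 0.11 SE, adjusted p = 9.8e-14).

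Slc7a5 rose in both lines, by 0.37 ± 0.06 in K19R and 2.13 ± 0.06 in FLAG-WT (difference -1.76 ± 0.09 SE, adjusted p = 5.4e-14). Slc3a2 rose by 0.82 ± 0.06 in K19R and 1.95 ± 0.07 in FLAG-WT (difference -1.13 ± 0.09 SE, adjusted p = 4.7e-10). Slc7a3 and Slc38a2 rose in both lines with no difference that passed, Slc7a3 by 1.47 ± 0.09 in K19R and 1.53 ± 0.09 in FLAG-WT (difference -0.05 ± 0.12 SE, adjusted p = 0.79), and Slc38a2 by 1.77 ± 0.07 in K19R and 1.66 ± 0.07 in FLAG-WT (difference 0.10 ± 0.10 SE, adjusted p = 0.51). Slc7a7 rose most of the 35 genes in both lines. It had 239 and 254 CPM at day 2 and 1.96 and 1.68 CPM at day 0 in K19R, and 409.6 and 408 CPM at day 2 and 2.81 and 3.68 CPM at day 0 in FLAG-WT (difference 0.10 ± 0.21 SE, adjusted p = 0.79). Slc7a2, an inducible cationic amino acid carrier, fell in both, to 1.83 and 1.39 CPM in K19R against 25.3 and 27.2 at day 0, and to 2.46 and 2.14 CPM in FLAG-WT against 16.1 and 15.6 at day 0 (difference -1.23 ± 0.24 SE, adjusted p = 4e-04).

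**Figure D3:**
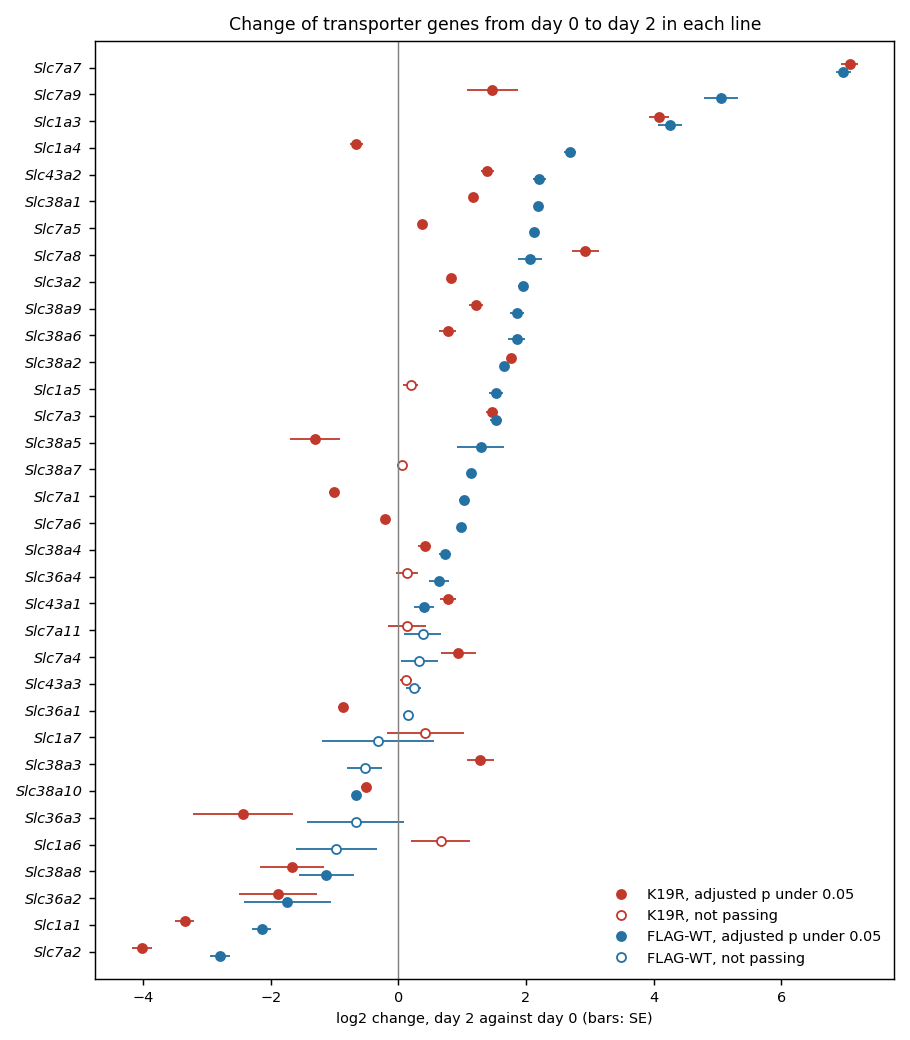
Log2 change at day 2 against day 0 (horizontal axis, bars of 1 SE) for each transporter gene (rows) in K19R (red) and FLAG-WT (blue), filled where the adjusted p was under 0.05. Slc1a2, with 3 counts in FLAG-WT at day 2, is left out. Slc1a4, Slc7a1, Slc7a6 and Slc38a5 lie left of 0 in K19R and right of 0 in FLAG-WT, while both symbols of Slc7a7 lie near 7.

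At days 6 and 10 the shares of the 35 genes called against day 0 were 65.7% and 85.7% in K19R and 85.7% and 82.9% in FLAG-WT, below the share of all genes in K19R at day 6 and less than 1.5 times it in the other cases. In K19R day 6 libraries, 15 were higher and 8 lower, with 72.3% of all genes called, 37.1% as higher and 35.2% as lower. In K19R day 10 libraries, 16 were higher and 14 lower, with 73.9% of all genes called (38.1% higher, 35.8% lower). In FLAG-WT day 6 libraries, 19 were higher and 11 lower, with 76.1% of all genes called (37.0% higher, 39.1% lower). In FLAG-WT day 10 libraries, 19 were higher and 10 lower, with 77.9% of all genes called (37.0% higher, 40.9% lower). Scaled by library totals only, the FLAG-WT split at day 10 was 16 higher and 13 lower, and that scaling moved the median of all genes from -0.12 to -0.53.

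Slc7a9 rose most by day 10. It had 0.516 and 0.14 CPM on day 0, 0.899 and 1.05 on day 2, 19.5 and 18 on day 6 and 52.9 and 53.3 on day 10 in K19R, and 0.124 and 0.395 CPM on day 0, 8.92 and 8.83 on day 2, 82.7 and 89.3 on day 6 and 71.8 and 62 on day 10 in FLAG-WT. The FLAG-WT libraries were highest at day 6 and the K19R libraries at day 10 (day 10 against day 0, 7.23 ± 0.20 SE, adjusted p = 3.5e-21 in K19R and 7.97 ± 0.21 SE, adjusted p = 3.8e-22 in FLAG-WT). Slc7a7 had 1.96 and 1.68 CPM on day 0, 239 and 254 on day 2, 85.6 and 89.5 on day 6 and 138 and 169 on day 10 in K19R, and 2.81 and 3.68 CPM on day 0, 409.6 and 408 on day 2, 177 and 171 on day 6 and 53.9 and 55.3 on day 10 in FLAG-WT. Its level went down after day 2 in both lines, but the K19R libraries were higher again at day 10 than at day 6. Slc7a8, a light chain that exchanges neutral amino acids with Slc3a2, had 49.3 and 59.8 CPM at day 10 and 1.18 and 3.12 CPM at day 0 in K19R, and 38.1 and 32.3 CPM at day 10 and 3.67 and 3.16 CPM at day 0 in FLAG-WT. It rose by 4.73 ± 0.19 in K19R and 3.36 ± 0.18 in FLAG-WT, and the difference between the lines passed (1.36 ± 0.30 SE, adjusted p = 5e-04).

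Slc38a3 had 1.51 and 1.54 CPM on day 0, 3.79 and 3.6 on day 2, 11.6 and 10.1 on day 6 and 10.3 and 9.92 on day 10 in K19R, and 1.2 and 1.74 CPM on day 0, 1.21 and 0.862 on day 2, 20.6 and 24.9 on day 6 and 41.8 and 45.7 on day 10 in FLAG-WT. FLAG-WT libraries went on upward to day 10, whereas K19R libraries stood near 10 CPM at days 6 and 10 (day 10 against day 0, 2.73 ± 0.19 in K19R and 4.89 ± 0.17 in FLAG-WT, difference -2.16 ± 0.29 SE, adjusted p = 9.8e-07). Slc38a6, a carrier of the same family, rose by 3.33 ± 0.12 in K19R and 3.19 ± 0.12 in FLAG-WT at day 10 (difference 0.14 ± 0.18 SE, adjusted p = 0.56). Slc7a2 fell by day 10 to 2.43 and 2.16 CPM in K19R, against 25.3 and 27.2 at day 0 (-3.51 ± 0.16 SE, adjusted p = 8.5e-17). In FLAG-WT it fell to 3.29 and 2.62 CPM, against 16.1 and 15.6 at day 0 (-2.42 ± 0.16 SE, adjusted p = 3.2e-13).

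Slc7a3 fell after day 2 in both lines and stayed higher in K19R. It had 77.9 and 74.2 CPM on day 0, 206 and 216 on day 2, 20.7 and 19.9 on day 6 and 25.1 and 18.3 on day 10 in K19R, and 78.8 and 78.8 CPM on day 0, 227 and 227 on day 2, 10.4 and 8.7 on day 6 and 6.79 and 6.8 on day 10 in FLAG-WT (day 10 against day 0, -1.81 ± 0.10 in K19R and -3.54 ± 0.12 in FLAG-WT, difference 1.73 ± 0.15 SE, adjusted p = 1.4e-09). Slc38a8 and Slc36a3 fell in FLAG-WT to levels near or at 0. Slc38a8 had 0.104 and 0.107 CPM at day 10 and 1.11 and 1.62 CPM at day 0 in FLAG-WT (-3.63 ± 0.64 SE, adjusted p = 1.3e-05). Slc36a3 had 0 counts in both FLAG-WT libraries at day 10 and 0.206 and 0.474 CPM at day 0, at least 2.14-fold lower with 3 counts per library as the floor.

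Slc3a2 and Slc38a1 rose and Slc7a5 fell from day 0 to day 10 in both lines. Slc3a2 at day 10 was higher than at day 0 by 0.81 ± 0.07 in K19R and 0.79 ± 0.07 in FLAG-WT. Slc38a1 was higher by 2.03 ± 0.07 in K19R and 2.18 ± 0.07 in FLAG-WT. Slc7a5 changed by -0.25 ± 0.06 in K19R and -0.20 ± 0.06 in FLAG-WT, where the call was lost without day 0 replicate 1 (-0.18). For each of these 3 genes the difference between lines in the change to day 10 did not pass (adjusted p = 0.89, 0.23 and 0.69, in that order). Slc1a5 fell by day 10 in both lines, with log2 changes of -0.98 ± 0.12 in K19R and -1.92 ± 0.14 in FLAG-WT. Slc7a1 changed by -0.93 ± 0.08 in K19R and 0.42 ± 0.07 in FLAG-WT, but in FLAG-WT the call was lost with library totals only (0.01). Slc38a2 had a log2 change of -0.16 ± 0.07 in K19R, which was lost in 3 of the 4 cases of leaving out a library and with the replicate number as a block (-0.16), and of 0.35 ± 0.07 in FLAG-WT, where the sign changed with library totals only (-0.05). Slc7a11 had log2 changes of -0.55 ± 0.33 SE, adjusted p = 0.14 in K19R and -1.06 ± 0.35 SE, adjusted p = 0.0085 in FLAG-WT, and the FLAG-WT call was lost without replicate 2 of day 0 (-0.59) or replicate 1 of day 10 (-0.84). In K19R it was called without replicate 1 of day 0 (-0.99) or replicate 2 of day 10 (-0.97).

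At day 6, Slc7a9, Slc38a6 and the lysosomal carrier Slc36a1 were lowest in K19R relative to FLAG-WT, and the glutamate carriers Slc1a2 and Slc1a3 were higher. Of the 35 genes, 15 were lower and 10 higher, with 58.5% of all genes called, 30.1% as lower and 28.4% as higher. The median log2 change was -0.04, against 0.02 over all genes, and it stayed at -0.04 with genes at 0 counts set at their bounds. Scaled by library totals only, the split was 9 lower and 17 higher, and the median of all genes moved to 0.38.

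Slc7a9 had 19.5 and 18 CPM at day 6 in K19R and 82.7 and 89.3 CPM in FLAG-WT (-2.19 ± 0.11 SE, adjusted p = 6.4e-15). Slc38a6 had 28.4 and 25.4 CPM in K19R and 81 and 79.5 CPM in FLAG-WT (-1.58 ± 0.10 SE, adjusted p = 1.2e-12). Slc36a1, the proton-coupled carrier of small amino acids, had 40.2 and 42.5 CPM in K19R and 107 and 112 CPM in FLAG-WT (-1.40 ± 0.08 SE, adjusted p = 2.6e-14). None of the 3 genes had overlapping groups. Slc1a3, the glutamate carrier of glial cells, went the other way, with 26.3 and 27.6 CPM in K19R and 11.1 and 9.34 CPM in FLAG-WT (1.39 ± 0.13 SE, adjusted p = 8.3e-10).

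Slc1a2, Slc36a2 and Slc36a3 were called as higher in K19R at day 6 from few counts. Slc1a2, the main glutamate carrier of brain astrocytes, had 0 counts in both FLAG-WT libraries and 0.642 and 0.81 CPM in K19R, at least 4.78-fold higher with 3 counts per library as the floor. Slc36a3 also had 0 counts in FLAG-WT and 0.241 and 0.317 CPM in K19R, at least 1.84-fold higher, and its call was lost without FLAG-WT replicate 1. Slc36a2 had 41 counts in K19R and 2 in FLAG-WT, a ratio of 15.5 (exact 95% interval of counting error, 4.04 to 133). Floors and intervals cover counting error only.

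The remaining genes of main interest differed by less at day 6. Slc7a5 no longer differed by the test, with 174 and 171 CPM in K19R and 181 and 174 CPM in FLAG-WT (-0.04 ± 0.06 SE, adjusted p = 0.56), though it was called higher with library totals only (0.32). Slc3a2 was still lower, with 227 and 227 CPM in K19R and 366 and 355 CPM in FLAG-WT (-0.67 ± 0.06 SE, adjusted p = 1.4e-09). Slc1a5 was higher, with 31.2 and 32.8 CPM in K19R and 21 and 16.3 CPM in FLAG-WT (0.77 ± 0.12 SE, adjusted p = 4.1e-06), and so was Slc7a3 (1.07 ± 0.12 SE, adjusted p = 1.5e-08). Slc38a1 (-0.52), Slc38a2 (-0.42) and Slc7a1 (-0.38) were lower, and these 3 calls were lost with library totals only. Slc7a11 had 1.73 and 1.51 CPM in K19R and 0.429 and 0.934 CPM in FLAG-WT (1.31 ± 0.45 SE, adjusted p = 0.016). Leaving out FLAG-WT replicate 1 (log2 change 0.79) or K19R replicate 1 (1.22) ended that call.

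At day 6 the stress response list had 13 of 18 genes lower and 3 higher (median -0.66), led by Ddit3 (-2.49), Ppp1r15a (-2.04) and Atf3 (-2.02). Over all genes tested, 58.5% were called that day, 30.1% as lower and 28.4% as higher. Of 20 synthesis genes 12 were lower and 6 higher, among them Psat1 of serine synthesis (-1.59) and Glul (-1.24). Of 20 tRNA synthetases 10 were lower and 6 higher, of 28 mTORC1 sensing genes 16 were lower and 7 higher, and of 15 glutathione genes 9 were lower and 2 higher. Of 21 transporters outside the families 16 were lower and 1 higher (9 and 2 with library totals only), led by the kidney and gut carriers Slc6a20b (-2.23), Slc6a18 (-2.20) and Slc6a19 (-1.82). In the other lists that scaling moved the number called by no more than 1.5 times. That check does not cover their splits into lower and higher, which may depend on the scaling too. Visceral endoderm markers summed to 9303 and 8974 CPM in K19R and 23942 and 24603 CPM in FLAG-WT at day 6, and pluripotency markers to 1147 and 1023 CPM in K19R and 626 and 565 CPM in FLAG-WT. Of the 14 visceral endoderm markers 13 were lower and 0 higher, and of the 9 pluripotency markers 2 were lower and 7 higher. Neural markers summed to 156 and 169 CPM in K19R and 76.9 and 66.7 CPM in FLAG-WT, with 6 of 8 tested higher and 0 lower (median log2 change 1.91). Fibroblast and mesenchyme markers summed to 87.6 and 98.4 CPM in K19R and 159 and 147 CPM in FLAG-WT, with 4 of 6 higher and 2 lower (median 2.18), so the sum and the median of the fibroblast list differed in direction. The part of these cell types in the day 6 differences, Slc1a2 and Slc1a3 included, was not tested.

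At day 10 the direction of several carriers was the opposite of day 2, and how many of all genes reversed was not counted. Of the 35 genes, 51.4% were called, 11 higher in K19R and 7 lower. Of all genes 58.4% were called, 33.2% as higher and 25.2% as lower. The median log2 change was 0.10, against 0.13 over all genes. Scaled by library totals only, 19 were higher and 3 lower, and the median of all genes was 0.44. Slc1a5, Slc7a7, Slc36a1, Slc38a7 and Slc43a2 had been called lower at day 2 and were called higher at day 10. Slc38a2, Slc38a3 and Slc38a10 had been called higher at day 2 and were called lower at day 10, though with library totals only Slc38a2 (0.01) and Slc38a10 changed sign and neither was called.

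Slc7a7 had 138 and 169 CPM at day 10 in K19R and 53.9 and 55.3 CPM in FLAG-WT (1.49 ± 0.08 SE, adjusted p = 7.5e-14). Slc7a3 had 25.1 and 18.3 CPM in K19R and 6.79 and 6.8 CPM in FLAG-WT (1.68 ± 0.13 SE, adjusted p = 2.1e-11). Slc38a4, an imprinted gene that in mouse is expressed from the paternal copy and carries neutral amino acids, had 109 and 126 CPM in K19R and 41.1 and 59.7 CPM in FLAG-WT (1.22 ± 0.11 SE, adjusted p = 2.5e-10). Both K19R libraries were higher than both FLAG-WT libraries for each of these genes. Slc43a2, a carrier of branched-chain amino acids and phenylalanine, had 90 and 82.9 CPM in K19R and 42.8 and 33.9 CPM in FLAG-WT (1.17 ± 0.09 SE, adjusted p = 7.3e-11). Slc1a5 had 18.2 and 14 CPM in K19R and 6.58 and 8.35 CPM in FLAG-WT (1.11 ± 0.15 SE, adjusted p = 3.3e-07), again with no overlap.

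Slc38a3 and Slc7a1 were lower at day 10. Slc38a3 had 10.3 and 9.92 CPM in K19R and 41.8 and 45.7 CPM in FLAG-WT (-2.11 ± 0.13 SE, adjusted p = 3.2e-13). Slc7a1 had 103 and 90 CPM in K19R and 192 and 202 CPM in FLAG-WT (-1.03 ± 0.08 SE, adjusted p = 1.4e-11). The groups lay apart for both. Slc7a1, Slc7a6 and Slc7a9 were the 3 genes called lower at each of days 2, 6 and 10, a pattern not counted over all genes. With library totals only, however, none of the 3 kept this pattern. At day 10 Slc7a6 (-0.15) changed sign and was called higher, and Slc7a9 (-0.33) was no longer called. At day 6 Slc7a1 lost its call (-0.02).

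Slc7a5 had 150.1 and 144 CPM in K19R and 157 and 158 CPM in FLAG-WT at day 10 (-0.10 ± 0.06 SE, adjusted p = 0.19). Slc3a2 had 242 and 235 CPM in K19R and 233 and 253 CPM in FLAG-WT (-0.03 ± 0.06 SE, adjusted p = 0.75), with groups that overlapped. Slc38a1 had 233 and 213 CPM in K19R and 249 and 230.1 CPM in FLAG-WT (-0.10 ± 0.07 SE, adjusted p = 0.19). None of the 3 passed, but all 3 were called higher with library totals only (0.21, 0.28 and 0.20), and Slc7a5 and Slc38a1 were called lower (-0.16 and -0.17) with relative log expression factors or DESeq2. Slc7a11 did not pass (0.31 ± 0.38 SE, adjusted p = 0.5).

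Slc1a2 and Slc36a3 were again called as higher in K19R from few counts at day 10. Slc1a2 had 21 counts in K19R and 2 in FLAG-WT, a ratio of 8.17 (exact 95% interval of counting error, 2.00 to 71.8). Slc36a3 had 8 counts in K19R, all in replicate 1, and 0 in FLAG-WT, at least 1.01-fold higher against the same floor. Without that library Slc36a3 had 0 counts in both lines and a log2 change of 0. The call of Slc1a2 was lost without K19R replicate 1 (2.75) and without FLAG-WT replicate 1 (1.96).

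At day 10 the stress response list still had 11 of 18 genes lower and 5 higher (median -0.55), with Ddit3 (-2.87) and Atf3 (-2.66) the lowest. Over all genes tested, 58.4% were called that day, 25.2% as lower and 33.2% as higher. Of 20 tRNA synthetases 10 were lower and 3 higher. The synthesis list was split, 8 lower and 10 higher, with the cystathionine lyase Cth (2.31) and Aldh18a1 (1.00) among the higher genes. Of 21 transporters outside the families 7 were lower and 9 higher, of 28 mTORC1 sensing genes 5 were lower and 8 higher (1 and 20 with library totals only), and of 15 glutathione genes 6 were lower and 5 higher. The splits of the other lists under that scaling are not given and may depend on it too. Visceral endoderm markers summed to 23096 and 23581 CPM in K19R and 33334 and 33482 CPM in FLAG-WT, and pluripotency markers to 1115 and 942 CPM in K19R and 523 and 495 CPM in FLAG-WT. Of the 14 visceral endoderm markers 5 were lower, 3 higher and 6 did not pass (median 0.07), and of the 9 pluripotency markers 2 were lower and 7 higher. Neural markers summed to 94 and 81.9 CPM in K19R and 182 and 160.1 CPM in FLAG-WT, with 6 of 8 tested higher and 2 lower (median log2 change 1.88). Fibroblast and mesenchyme markers summed to 189 and 207 CPM in K19R and 113 and 107 CPM in FLAG-WT, with 5 of 6 higher and 1 lower (median 2.77). The sum and the median of the neural list differed in direction. For visceral endoderm the sum was lower in K19R, while the median was 0.07. The part of these cell types in the day 10 differences was not tested.

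Between day 0 and day 10 the gap between the lines changed for 16 genes, 8 in each direction (45.0% of all genes called, 26.1% higher and 18.8% lower). With library totals only it was positive for 14 and negative for 5, and the median of all genes moved from 0.16 to 0.49. Slc7a7 had the largest positive change (2.31 ± 0.21 SE, adjusted p = 2.5e-09) and Slc38a3 the largest negative change (-2.16 ± 0.29 SE, adjusted p = 9.8e-07) among those called.

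**Figure D4:**
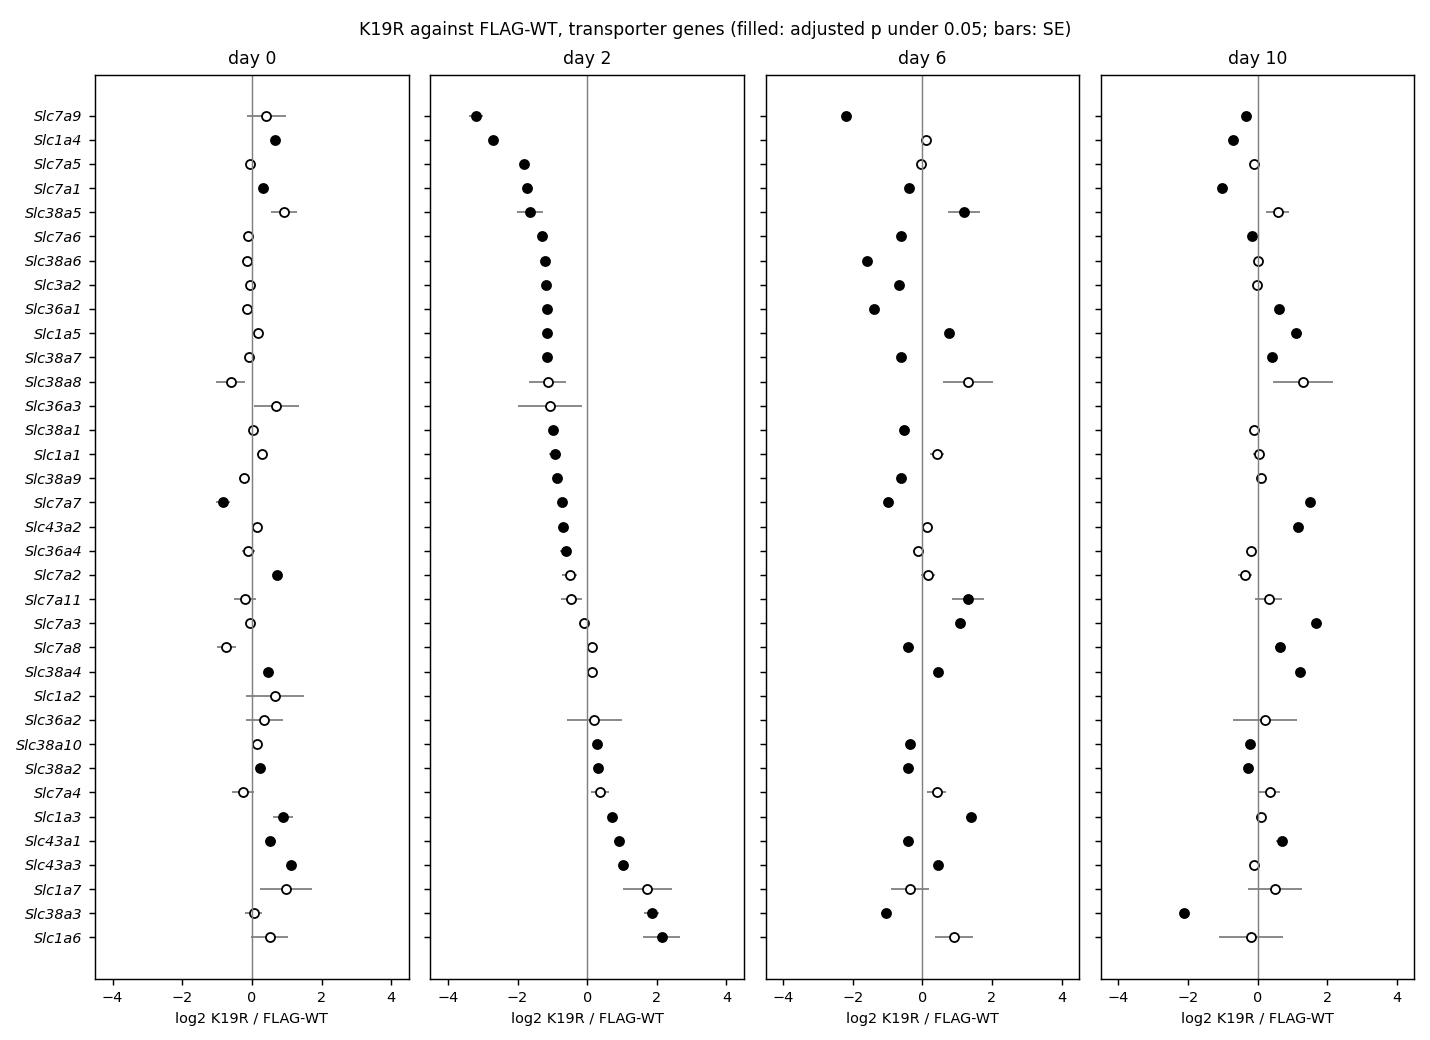
Log2 ratio of K19R over FLAG-WT (horizontal axes, bars of 1 SE) for each transporter gene (rows, ordered by the day 2 value) at days 0, 2, 6 and 10, filled where the adjusted p was under 0.05. Genes with 3 or fewer counts in a group, or with both groups at or under 3 counts per library, are left out of a panel. At day 2, 17 of the 24 filled symbols lie left of 0, and at day 10, 9 of the 16 lie right of it.

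In mESCs at day 0 fewer genes were called between the lines than on later days. Of the 35 genes, 8 were higher in K19R and 1 lower, with 10.5% of all genes called, 5.51% as higher and 4.98% as lower. Slc43a3, the purine nucleobase carrier, was the called gene with at least 2-fold change, with 17.3 and 19.3 CPM in K19R and 8.96 and 7.71 CPM in FLAG-WT (1.13 ± 0.11 SE, adjusted p = 2.3e-07). Slc7a2 had 25.3 and 27.2 CPM in K19R and 16.1 and 15.6 CPM in FLAG-WT (0.73 ± 0.13 SE, adjusted p = 0.00029). Slc1a4 had 22.8 and 24.2 CPM in K19R and 14.3 and 15.5 CPM in FLAG-WT (0.65 ± 0.10 SE, adjusted p = 5.5e-05), the opposite direction to day 2. Slc38a4 had 220.1 and 217 CPM in K19R and 156 and 159 CPM in FLAG-WT (0.47 ± 0.10 SE, adjusted p = 0.0019). In each of these 4 genes both K19R libraries were above both FLAG-WT libraries.

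The other 5 calls at day 0 depended on single libraries. Leaving out 1 library at a time gave 5 to 7 called genes in all, against 9 with every library. Slc7a1 (0.32 ± 0.07 SE, adjusted p = 0.0063), Slc43a1 (0.53 ± 0.15 SE, adjusted p = 0.02) and Slc1a3 (0.89 ± 0.28 SE, adjusted p = 0.038), all higher in K19R, were each lost in 2 or 3 of the 4 cases. Slc7a7, with 1.96 and 1.68 CPM in K19R and 2.81 and 3.68 CPM in FLAG-WT (-0.83 ± 0.20 SE, adjusted p = 0.0076), was lost without FLAG-WT replicate 2 (-0.62) or K19R replicate 2 (-0.73). Slc38a2 (0.22 ± 0.07 SE, adjusted p = 0.049) was lost in all 4 cases. Slc7a5 (-0.05 ± 0.06 SE, adjusted p = 0.7), Slc3a2 (-0.05 ± 0.07 SE, adjusted p = 0.73), Slc1a5 (0.17 ± 0.11 SE, adjusted p = 0.39), Slc7a3 (-0.05 ± 0.09 SE, adjusted p = 0.79), Slc38a1 (0.04 ± 0.07 SE, adjusted p = 0.78) and Slc7a11 (-0.20 ± 0.31 SE, adjusted p = 0.76) did not pass. Visceral endoderm markers summed to 100.4 and 101 CPM in K19R and 95.8 and 201 CPM in FLAG-WT, where replicate 2 stood apart. Of the 14 markers, 8 were lower in K19R and 1 higher at day 0, with a median log2 change of -1, and their part in the day 0 calls was not tested.

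Wildtype mESCs in LIF differed from FLAG-WT mESCs in LIF and 2i in line, medium and count table, which cannot be told apart. Slc7a7, Slc1a3, Slc7a5 and Slc3a2 were among the genes higher in the wildtype mESCs, and Slc1a1, Slc7a2 and Slc36a1 (-1.49) among those lower. Of the 35 genes, 16 were higher and 11 lower, with 64.9% of all 19296 genes tested called, 32.4% as higher and 32.5% as lower. The median log2 change was 0.67, against 0 over all genes. The 42 genes summed to 2269.6 and 2306 CPM in wildtype mESCs in LIF and 1584 and 1587 CPM in FLAG-WT mESCs.

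Slc7a7 had 111 and 109 CPM in wildtype mESCs in LIF, against 2.84 and 3.72 CPM in FLAG-WT mESCs (5.06 ± 0.11 SE, adjusted p = 2.5e-23). Slc1a3 had 27.6 and 28.4 CPM in wildtype mESCs and 1.21 and 0.679 CPM in FLAG-WT mESCs (4.89 ± 0.18 SE, adjusted p = 5.2e-19). Both genes were low in the FLAG-WT mESCs, and both were also high in the day 2 embryoid bodies of either knock-in line. Slc1a1, a glutamate and cysteine carrier, was lower, with 1.88 and 1.8 CPM in wildtype mESCs and 24.8 and 24.9 CPM in FLAG-WT mESCs (-3.76 ± 0.17 SE, adjusted p = 7.4e-17), with the antisense overlap named above. Slc7a2 was lower too, with 1.3 and 2.16 CPM in wildtype mESCs and 16.3 and 15.7 CPM in FLAG-WT mESCs (-3.08 ± 0.18 SE, adjusted p = 1.1e-14). Slc38a8 had 0.065 and 0.394 CPM in wildtype mESCs and 1.13 and 1.64 CPM in FLAG-WT mESCs (-2.24 ± 0.50 SE, adjusted p = 0.00034). The groups did not overlap for any of these 5 genes.

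Slc36a3 had 2 counts in wildtype mESCs and 17 in FLAG-WT mESCs, 9.72-fold lower in wildtype mESCs (exact 95% interval of counting error, 2.31 to 86.8), a call lost without wildtype replicate 2 or FLAG-WT replicate 2. Slc7a5 had 357 and 354 CPM in wildtype mESCs and 186 and 179.5 CPM in FLAG-WT mESCs (0.96 ± 0.06 SE, adjusted p = 1e-13), and Slc3a2 had 297 and 293 CPM in wildtype mESCs and 145 and 139 CPM in FLAG-WT mESCs (1.06 ± 0.06 SE, adjusted p = 3.3e-14). Both chains were higher in both wildtype libraries, with no overlap. Slc1a5 (1.33 ± 0.11 SE, adjusted p = 1.3e-11), Slc38a1 (1.32 ± 0.07 SE, adjusted p = 5.7e-15), Slc7a3 (0.97 ± 0.08 SE, adjusted p = 5.3e-11) and Slc38a2 (0.41 ± 0.07 SE, adjusted p = 1.5e-05) were higher as well. Slc7a11 had 7.41 and 9.1 CPM in wildtype mESCs and 2.38 and 4.2 CPM in FLAG-WT mESCs (1.35 ± 0.26 SE, adjusted p = 5.3e-05), and Slc7a1 was lower (-0.55 ± 0.07 SE, adjusted p = 2.7e-07).

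Of all genes tested, 64.9% were called in this comparison, 32.4% as higher and 32.5% as lower. Of the lists, 16 of 20 tRNA synthetases were higher and 0 lower in wildtype mESCs, and 13 of 20 synthesis genes were higher and 1 lower. Of 18 stress response genes 9 were higher and 4 lower, with Vldlr (3.19), Ddit4 (2.81), Nupr1 (2.71) and Chac1 (2.57) among the higher. Of 21 transporters outside the families 4 were higher and 10 lower, of 28 mTORC1 sensing genes 14 were higher and 10 lower, and of 15 glutathione genes 5 were higher and 3 lower. Pluripotency markers summed to 5479.8 and 5417 CPM in wildtype mESCs and 6487 and 6466 CPM in FLAG-WT mESCs, and the fibroblast and mesenchyme markers to 116 and 109 CPM in wildtype mESCs and 16.2 and 17.5 CPM in FLAG-WT mESCs. Their part was not tested.

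**Figure D5:**
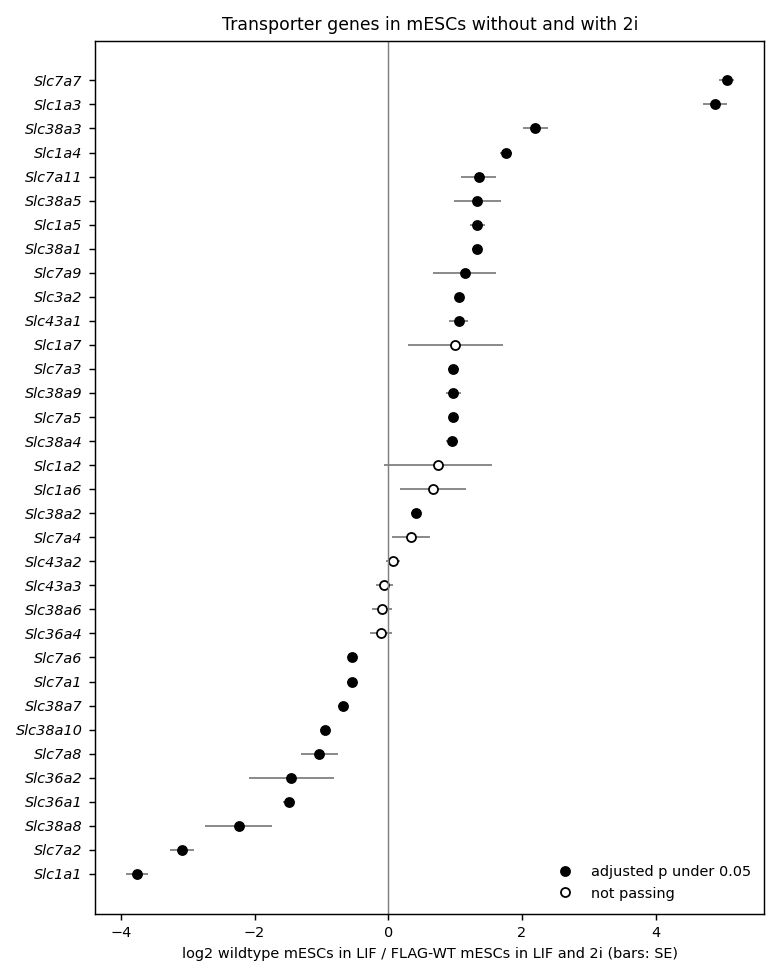
Log2 ratio of wildtype mESCs in LIF over FLAG-WT mESCs in LIF and 2i (horizontal axis, bars of 1 SE) for each transporter gene (rows), filled where the adjusted p was under 0.05. Slc36a3, with 2 counts in wildtype mESCs, is left out. Slc7a7 and Slc1a3 lie near 5 on the right and Slc1a1 lies furthest left at -3.76.

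Per kilobase of exon, Slc7a5, Slc3a2, Slc38a2 and Slc38a4 were the 4 highest of the 42 genes in mESCs of both knock-in lines. In K19R at day 0 the order was Slc38a4 at 51.3 CPM per kilobase, Slc7a5 at 47.1, Slc3a2 at 38.5 and Slc38a2 at 36.2. In FLAG-WT at day 0 it was Slc7a5 at 48.7, Slc3a2 at 39.8, Slc38a4 at 37.0 and Slc38a2 at 31.1. At day 2 the order in K19R was Slc38a2 at 123.1 CPM per kilobase, Slc7a7 at 74.3 and Slc38a4 at 68.4, and the order in FLAG-WT was Slc7a5 at 213.5, Slc3a2 at 153.4 and Slc7a7 at 123.3.

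Some of the genes lie in the same region of a chromosome, not always directly side by side, and such genes did not always move together. Slc38a1, Slc38a2 and Slc38a4 lie in a row on the minus strand of chromosome 15 (96571418 to 97055956). At day 2 their log2 changes in K19R were -0.97 ± 0.07, 0.32 ± 0.07 and 0.15 ± 0.10, and at day 10 they were -0.10 ± 0.07, -0.29 ± 0.07 and 1.22 ± 0.11. Slc36a1 lies beside Slc36a2 and Slc36a3 on chromosome 11 (55124815 to 55236330). At day 6 Slc36a1 was lower in K19R (-1.40), while the few counts of Slc36a2 and Slc36a3 were higher. Slc7a7 and Slc7a8, on the minus strand of chromosome 14 (54369442 to 54781946), were both lower at day 6 (-0.99 ± 0.08 and -0.42 ± 0.13) and both higher at day 10 (1.49 ± 0.08 and 0.63 ± 0.13) in K19R, but the day 6 call of Slc7a8 was lost with library totals only and with DESeq2. Slc43a1 and Slc43a3, on the plus strand of chromosome 2 (84838850 to 84958509), were both higher in K19R at days 0 and 2 and had log2 changes of -0.41 ± 0.14 and 0.45 ± 0.11 at day 6, where the call of Slc43a1 was lost with library totals only.

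The 7 genes that were not tested had few counts. Slc7a12 had 0 counts in the 16 FLAG-EED libraries and Slc7a13 had 1. Slc38a11 had 15 counts in all, Slc7a10 had 36, Slc3a1 had 49, Slc7a14 had 57 and Slc7a15 had 68. Of the 49 counts of Slc3a1, 25 came from the K19R libraries at day 10, with 0.718 and 0.297 CPM there and 0.0522 and 0.0535 CPM in FLAG-WT, but 26.4% of its exon length overlaps Prepl on the other strand. Of the tested genes, Slc1a7, Slc7a2, Slc7a4 and Slc38a8 did not pass between the lines at days 2, 6 or 10.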

How the data were processed

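RNA-seq counts came from 18 libraries in 9 groups of 2, grouped by their labels. Per the file headers, the authors made the deposited counts with featureCounts 1.6.3 (FLAG-EED table) and 1.6.4 (wildtype mESC table), counting read pairs with both ends mapped over GENCODE vM19 exons of GRCm38, by gene name and with no strand option. The submitters' processing notes also name STAR 2.7.0c, Trim Galore 0.6.0, FastQC 0.11.7 and bcl2fastq 2.17. Overlapping and antisense genes are therefore uncertain. Genes passed a count filter (filterByExpr, 10 per library and 15 in total), were scaled by TMM and tested with edgeR 4.0.16 in R 4.3.3, with Benjamini-Hochberg adjustment over all genes tested. The 16 knock-in libraries shared 1 fit with 8 residual degrees of freedom, and all 18 shared another with 9, over the 54352 names that both tables hold. The script was tested on simulated data. The SE is the change divided by the root of its F statistic.

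Genes named with full values were, for each day, the 8 called members with the largest change between lines, the 6 for day 10 against day 0 and for wildtype mESCs, those whose genotype difference changed by at least 1, and 8 set members. Others named for a pattern were chosen after their values were seen. The members and lists were chosen with earlier results of these data known. Alternatives were other scaling, no filter, the compared groups alone, the replicate number as a block, DESeq2 1.42.0 and leaving out each library. Replicates differed beyond counting noise (chi-square per degree of freedom 2.28 to 11.2), so none was merged.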

Additional observations from a re-analysis of the deposited data

Results flagged for a closer look

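The flag was a change of the difference between K19R and FLAG-WT by at least 1 on the log2 scale. The change itself had to have an edgeR adjusted p under 0.05. From day 0 to day 2, 1680 of all 19092 genes tested met this. Among the 35 transporter genes tested, the difference changed so for 15. It went towards lower levels in K19R for Slc7a9 (-3.59), Slc1a4 (-3.35), Slc38a5 (-2.58), Slc7a1 (-2.03), Slc7a5 (-1.76), Slc1a5 (-1.34), Slc7a2 (-1.23), Slc1a1 (-1.21), Slc7a6 (-1.20), Slc3a2 (-1.13), Slc38a7 (-1.09), Slc38a6 (-1.07), Slc36a1 (-1.03) and Slc38a1 (-1.01). It went towards higher levels in K19R for Slc38a3 (1.81). The value for Slc7a9 lost its call without K19R day 0 replicate 1 (-2.29).

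From day 0 to day 10 the difference changed by at least 1 and passed for 9 of the 35 genes, against 4049 of all 19092. It went towards lower levels in K19R for Slc38a3 (-2.16), Slc1a4 (-1.36), Slc7a1 (-1.34), Slc43a3 (-1.23) and Slc7a2 (-1.09). It went towards higher levels in K19R for Slc7a7 (2.31), Slc7a3 (1.73), Slc7a8 (1.36) and Slc43a2 (1.03). Slc7a1, Slc7a2, Slc38a3 and Slc1a4 stand in both sets, which share the day 0 libraries, and Slc38a3 had opposite signs in them.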

How the results depend on the processing

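Of 1321 recomputed pairs of a gene and a setting, 1270 were counted as unchanged, 38 lost the call, 6 gained it and 7 reversed. The pairs cover only genes named by the selection rules above, not all members. A change of sign was counted as a reversal only where the main or the recomputed fit called the gene. With library totals only in place of TMM, some log2 values among these pairs reversed. In K19R against FLAG-WT they were 0.32 for Slc7a5 at day 6 and, at day 10, 0.21 for Slc7a5, 0.28 for Slc3a2, 0.01 for Slc38a2 and 0.20 for Slc38a1. In FLAG-WT at day 10 against day 0 Slc38a2 was -0.05. Outside these pairs, Slc7a6 and Slc38a10 also changed sign between the lines at day 10, where Slc7a6 was then called higher in K19R. Slc38a10 changed sign in FLAG-WT at day 6 against day 0 as well. Slc36a3 at day 10 ranged over 0 to 5.99 when libraries were left out, with 0 without K19R replicate 1, which held all its K19R counts. That scaling gave a median over all genes of 0.38 (0.02 with TMM) at day 6 and 0.44 (0.13) at day 10 between the lines, and of -0.43 (-0.05) at day 6 and -0.53 (-0.12) at day 10 in FLAG-WT against day 0. The cause was not tested.

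Leaving out each library, the genes called between the lines numbered 5 to 7 at day 0 (9 with all libraries, 5 without FLAG-WT replicate 2 or K19R replicate 1), 24 to 25 at day 2, 21 to 25 at day 6 and 14 to 19 at day 10. With only the groups compared in the fit, all genes called at day 0 numbered 4014, against 2003. Over all genes, 879, 845, 888 and 955 were called at day 0 when a library was left out. Same-numbered libraries of different groups did not deviate together over the tested genes (r between -0.06 and 0.09 over 28 pairs of groups), and the main fit did not pair them. A batch that affects few genes could be missed by such a correlation, so a shared batch is not excluded. With the replicate number as a block, 8 genes were called at day 0, 17 at day 10 and 29 in K19R at day 10 against day 0, and Slc38a2 lost its call at day 0 (0.22) and in K19R at day 10 against day 0 (-0.16). Counts under about 3 per library limit Slc1a2, Slc36a2 and Slc36a3.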
